A study of Mus musculus with 24 samples.

Results

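The genes described here encode the nuclear subunits of the 5 complexes of oxidative phosphorylation, the respiratory chain and the ATP synthase of mitochondria. Members were chosen by symbol: Nduf genes of the A, B, C, S and V series, Sdha to Sdhd, Uqcr genes, Cyc1, Cox4 to Cox8 genes and Atp5 genes. The rule found 78 of the 12091 genes in the table. Of these, 36 were counted under complex I, 4 under complex II, 9 under complex III, 12 under complex IV and 17 under complex V. The count follows the symbol, so Ndufa4, whose protein is now assigned to complex IV, stands under complex I, and Cox7a2l, which joins complexes III and IV in supercomplexes, stands under complex IV.

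The study asked what inhibition of pleiotrophin (Ptn), a secreted heparin-binding growth factor, does to mouse breast cancer. RNA of 24 samples was sequenced in 4 experiments of 6 samples, each with 3 control and 3 inhibited samples. The 4T1 and PyMT experiments used mammary tumors of mice given the Ptn antibody 3B10 or the control IgG C44. The E0771 and E0771-LG experiments used cultured cells with a Ptn shRNA (shPTN) or a control shRNA (shCtrl).

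4T1 tumors grew in BALB/c females after orthotopic injection of 4T1 carcinoma cells into mice 8 weeks old, and treatment began once tumors could be felt. PyMT tumors arose in MMTV-PyMT mice on FVB/N, where the mammary tumor virus promoter drives the polyoma middle T oncogene in mammary epithelium, and treatment began at 8 weeks of age. Both antibodies were given at 15 mg/kg, 2 times a week. E0771 is a C57BL/6 mammary carcinoma line and E0771-LG its metastatic derivative. In both lines shPTN was 1 construct and shCtrl the pLKO.1-puro vector directed at EGFP, and all cells had been selected and kept in puromycin for 6 weeks. An effect of the 1 shRNA on Ptn and any other effect of that construct or of the selected population cannot be told apart. The tumors also held host cells, so in these bulk samples fewer cells of a type and less RNA per cell cannot be told apart.

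Complex I takes electrons from NADH and complex II from succinate, and both pass them to ubiquinone. Complex III hands them on to cytochrome c and complex IV to oxygen, and the proton gradient built on the way drives the ATP synthase, complex V. Complexes I, III, IV and V combine subunits encoded in mitochondrial DNA with nuclear ones, whereas complex II is wholly nuclear, and many carcinomas keep respiration running beside glycolysis.

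The deposited values were log2 levels. For PyMT tumors and both cell lines they were log2 CPM, the log2 of the reads of a gene per 1 M reads of its sample, at a depth of 15.63 to 21.12 M assigned reads. All PyMT C44 libraries (18.76 to 19.25 M) were deeper than all 3B10 libraries (16.26 to 18.44 M). The 4T1 values were normalized for gene length and their depth is unknown, so levels were not compared between 4T1 and the other experiments. To be tested in an experiment, a gene had to reach 1 off the log scale in 3 or more of the 6 libraries. All 78 members were tested in 4T1 tumors and 77 in each of the other experiments, where Cox4i2 fell below that limit. The members lay on 19 chromosomes, with at most 6 on any of them. They were short genes: their median exonic length was 1696 bases against 4426 for all genes in the table, with a range from 419 (Ndufa1) to 8086 (Ndufs1). Their median GC content was 50.9% against 50.3%. Exonic length counts every base in an annotated exon of any transcript of the gene, so it can exceed the length of an mRNA.

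Ptn itself was read out in the cells as the target. In E0771 cells its log2 CPM was 2.90, 2.18 and 2.28 with shCtrl and −0.63, 0.25 and 0.53 with shPTN, and it fell by 2.40 (SE 0.37, adjusted p = 0.00162). In E0771-LG cells it was 3.65, 4.51 and 3.74 with shCtrl and 1.42, 0.98 and 1.38 with shPTN, and it fell by 2.71 (SE 0.28, adjusted p = 6.27e-05). The groups did not overlap in either line. In PyMT tumors, where the antibody acts on the protein, Ptn changed by 0.50 (SE 0.37, adjusted p = 1), and in 4T1 tumors it lay below the limit for testing. Here and in what follows an adjusted p is that of limma after Benjamini-Hochberg adjustment over all genes tested in the comparison, "called" means an adjusted p under 0.05, and a log2 fold change is inhibited minus control.

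The mean level of the members was taken in each sample relative to the control mean of its experiment. On this log2 scale the 4T1 tumors stood at −0.06, −0.11 and 0.17 with C44 and at 0.26, 0.09 and 0.12 with 3B10. The PyMT tumors stood at 0.25, −0.19 and −0.05 with C44 and at 0.05, 0.02 and 0.22 with 3B10. In both tumor models the groups overlapped. The E0771 cells stood at 0.07, −0.23 and 0.16 with shCtrl and at 0.35, −0.33 and 0.03 with shPTN. The E0771-LG cells stood at −0.05, 0.01 and 0.04 with shCtrl and at 0.51, 0.67 and 0.51 with shPTN. E0771 had the widest scatter, with both its highest and its lowest sample in the shPTN group, while in E0771-LG every shPTN sample lay above every shCtrl sample. The median of all genes tested moved little in the same E0771-LG samples, between −0.01 and 0.05.

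**Figure D1:**
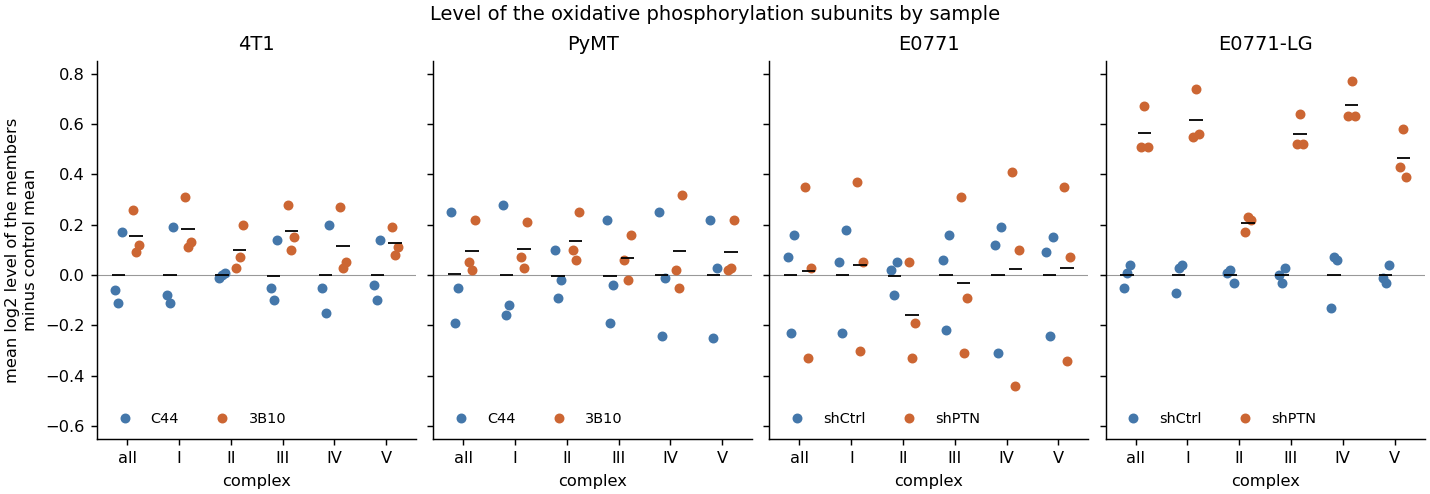
Mean log2 level of the tested subunits in each of the 24 samples, minus the mean of the control group of its experiment, for all members and for each complex. Each point is a sample, bars are group means, and in E0771-LG all shPTN samples (0.51, 0.67 and 0.51 over all members) lie above all shCtrl samples.

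In 4T1 tumors limma called 0 of 78 members higher and 0 lower, beside 0% of the 11632 genes tested in either direction. At an unadjusted p under 0.05 there was 1 member higher, Atp5g3, and 0 lower. The median log2 fold change of the members was 0.17, beside 0.01 over all genes tested, and 72 of the 78 (92.3%) were above 0, against 51.4% of all genes; with GC content and length corrected it was 0.13, beside 0.02. By complex the medians were 0.20 for I, 0.10 for II, 0.22 for III, 0.19 for IV and 0.13 for V. In 10 members (12.8%) all 3B10 tumors lay above all C44 tumors, against 6.83% of all genes. Of the other lists there, mitochondrial ribosomal proteins had a median of 0.16 (72 of 77 above 0) and the proteasome 0.13 (35 of 37). Electron carriers and partners had 0.14 (14 of 20), and cytosolic ribosomal proteins 0.11 (65 of 80). The median was 0.09 for assembly factors (37 of 49). It was 0.07 for the TCA cycle (15 of 17) and for regulators of mitochondrial genes (12 of 15).

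The highest member of each complex in 4T1 tumors was Ndufa4 (log2 fold change 0.39), Sdhb (0.13), Uqcr10 (0.28), Cox5a (0.28) and Atp5g3 (0.34). The lowest was Ndufs1 (−0.11), Sdha (0.07), Uqcrc2 (−0.03), Cox4i2 (−0.51) and Atp5md (−0.18). Atp5g3 encodes the c subunit of the ATP synthase rotor. Its log2 level was 8.09, 7.96 and 8.30 with C44 and 8.52, 8.40 and 8.45 with 3B10, a fold change of 0.34 (SE 0.12, adjusted p = 0.729). All its 3B10 tumors were above all C44 tumors. Cox4i2, an isoform of a regulatory subunit of complex IV, had 3.51, 4.12 and 3.65 with C44 and 3.66, 3.30 and 2.78 with 3B10 (SE 0.27, adjusted p = 0.859). Here the groups overlapped in a single 3B10 tumor.

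Sums of cell type markers differed between the 4T1 groups, although limma called 0 genes of any marker list (at an unadjusted p under 0.05, 5 muscle and 5 epithelial markers were higher, 4 leukocyte markers lower, 1 neutrophil marker higher and 2 lower, and 1 fibroblast marker higher and 1 lower). Of 10 skeletal muscle markers 6 were in the table, and their summed level off the log scale was 16.7, 15.1 and 30.9 with C44 and 47.7, 204 and 344 with 3B10. Tnnt3 was the most abundant in 5 of the 6 tumors and Acta1 in 3B10 replicate 2, and Myh4 was at the lowest value of the sample in C44 replicates 2 and 3. The 7 leukocyte markers found of 8 summed to 1020, 949 and 965 with C44 and 702, 868 and 584 with 3B10, with Laptm5 or Cd52 most abundant and none at the lowest value. The 5 mammary epithelium and carcinoma markers summed to 3190, 3470 and 3450 with C44 and 4890, 4460 and 5100 with 3B10, with Krt18 most abundant and none at the lowest value. Muscle and epithelial sums were higher and leukocyte sums lower in every 3B10 tumor than in every C44 tumor. The 4 neutrophil markers found of 5 (S100a9 or S100a8 most abundant), the 4 endothelial (Cdh5), the 4 fibroblast (Col1a1) and the only fat marker found of 8 (Fabp4) overlapped between the groups. The part of these lists in the result was not tested.

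In PyMT tumors limma called 0 of 77 members higher and 0 lower, beside 0% of the 11381 genes tested in either direction, and 0 members passed an unadjusted p under 0.05. The median of the members was 0.10, beside 0.05 over all genes, with 63 of 77 (81.8%) above 0, against 61% of all genes. With median-of-ratios scaling 68.8% of members and 50.4% of all genes were above 0. The medians were 0.12 for complexes I, II and IV, 0.06 for III and 0.10 for V. In 5 members (6.49%), Atp5a1, Atp5b, Ndufv1, Sdha and Sdhb, all 3B10 tumors lay above all C44 tumors, against 6.05% of all genes. The highest members were Ndufa5 (0.37), Sdhb (0.28), Cyc1 (0.23), Cox5b (0.27) and Atp5b (0.27), and the lowest were Ndufc1 (−0.23), Sdhc (0.02), Uqcrh (−0.13), Cox7a2 (−0.17) and Atp5j2 (−0.08). The muscle sums were 31.2, 12.3 and 7.73 with C44 and 9.51, 11.8 and 9.78 with 3B10, led by Myh4, Acta1 or Mylpf, with Tnnc2 at the lowest value in each tumor. They overlapped between the groups, as did the sums of the other 6 marker lists.

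The response of the members in PyMT minus that in 4T1 tumors had a median of −0.08, beside 0.04 over all genes, and 21 of 78 (26.9%) were above 0, against 56.4% of all genes, or 37.2% with quantile normalization. With GC content and length corrected 43.6% were above 0 and the median was −0.02, beside 0.00 over all genes. The limma interaction term called 0 members higher and 0 lower, beside 0% of 11970 genes in either direction, and 0 members passed an unadjusted p under 0.05. A difference between the tumor models was thus not detected for any member.

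In E0771 cells 1 of 77 members was called higher and 0 lower, beside 8.9% of the 10403 genes tested called higher and 11.7% called lower. At an unadjusted p under 0.05 limma gave 2 members higher and 1 lower. The median was −0.01, beside −0.03 over all genes, and 34 members (44.2%) were above 0, against 45.5% of all genes. With median-of-ratios scaling the share was 58.4% and the median 0.02, so the sign of the median depended on the scaling. All shPTN samples lay above all shCtrl samples in 1 member (1.3%), against 16.9% of all genes. The medians of the complexes were −0.01 for I, −0.15 for II, −0.07 for III, −0.01 for IV and 0.00 for V.

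The member called in E0771 was Ndufa12, an accessory subunit of the matrix arm of complex I. Its log2 CPM was 5.05, 4.56 and 4.98 with shCtrl and 6.00, 5.55 and 5.64 with shPTN, a fold change of 0.87 (SE 0.16, adjusted p = 0.00375). The groups did not overlap. The other extremes were Ndufb6 (−0.32) for complex I, Sdhb (0.01) and Sdhd (−0.33) for II, Uqcrh (0.22) and Uqcrfs1 (−0.21) for III, Cox5b (0.30) and Cox6a1 (−0.12) for IV, and Atp5g2 (0.26) and Atp5o (−0.26) for V. Sdhd, a membrane anchor of complex II, had 6.61, 6.44 and 6.65 with shCtrl and 6.58, 6.02 and 6.10 with shPTN (SE 0.14, adjusted p = 0.116). Its shPTN replicate 1 lay among the controls and the others below them. Without that replicate 2 members were called lower, Sdhd (−0.51, adjusted p = 0.00521) and Sdhc. Without shPTN replicate 2 there were 5 called higher, Ndufa12, Atp5g2 (0.36, adjusted p = 0.0305), Atp5l, Ndufa7 and Ndufv3. Sdhc, Atp5l, Ndufa7 and Ndufv3 were named after their values were seen.

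**Figure D2:**
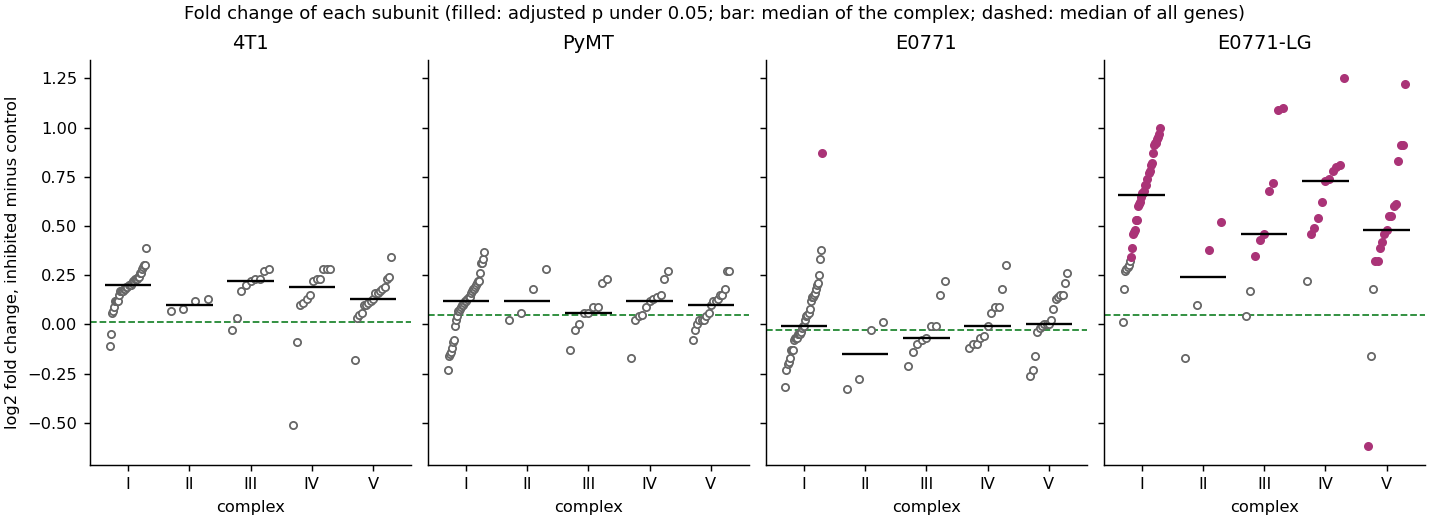
Log2 fold change (inhibited minus control) of every tested subunit by complex in the 4 experiments. Filled points have an adjusted p under 0.05, bars are medians of the complex, and the dashed line is the median of all genes tested. In E0771-LG 61 members were called higher and 1 lower, which became 25 and 3 once GC content and length were corrected for.

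In E0771-LG cells 61 of 77 members were called higher and 1 lower, beside 24.3% of the 10417 genes tested called higher and 22% called lower. That is 79.2% of the members higher and 1.3% lower. The median of the members was 0.60, beside 0.05 over all genes, and 74 (96.1%) were above 0, against 53.8% of all genes. In 68 members all shPTN samples lay above all shCtrl samples (88.3%, against 30.5% of all genes), and in 3, Atp5a1, Atp5c1 and Sdha, all lay below (3.9%, against 26.6%). By complex the medians were 0.66 for I, 0.24 for II, 0.46 for III, 0.73 for IV and 0.48 for V.

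These values moved with gene length, and they became smaller when each sample was corrected for the exonic GC content and length of genes. After it 25 members were called higher and 3 lower, beside 18.1% and 21.9% of all genes, the median was 0.22 and 77.9% were above 0, against 48.8% of all genes. All 25 were among the 61. The correction used the annotated exonic length, so which members stayed called depends on that annotation. The corrected medians were 0.23 for complex I, −0.01 for II, 0.11 for III, 0.22 for IV and 0.23 for V, so that of complex II changed sign. The calls by complex became 12 of the 28 higher in I, 0 of 2 in II, 2 of 7 in III (Uqcrh and Uqcr11), 4 of 10 in IV (Cox7b, Cox6c, Cox5b and Cox7c) and 7 of 14 in V. The 3 called lower after the correction were Atp5a1, Atp5c1 (−0.48) and Sdhd (−0.34). Of the genes named for these counts, Atp5c1, Uqcr11, Cox6c and Cox7c were named after their values were seen.

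Across the 10417 genes tested in E0771-LG, the log2 fold change fell with length by 0.22 per doubling of exonic length, and Spearman's rho was −0.40. Across the members alone rho was also −0.40 (n = 77), where genes of an experiment share libraries and are not independent. The median log2 fold change of all genes was 0.57 under 1000 bases, 0.45 from 1000 to 2000, 0.19 from 2000 to 4000 and −0.13 from there on. For the members in the same classes it was 0.68 (17 members), 0.68 (30), 0.45 (20) and 0.32 (10). In each class the members thus stood above the median of all genes of that length, by the least in the shortest. In the other experiments the slope over all genes was closer to 0, at −0.03 in 4T1 and −0.02 in E0771. In 4T1 rho was nevertheless −0.24 over all genes and over the members, and the median of all genes was 0.09 under 1000 bases and 0.11 from 1000 to 2000, beside 0.20 and 0.19 for members of those lengths. The cause of the relation with length was not tested.

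**Figure D3:**
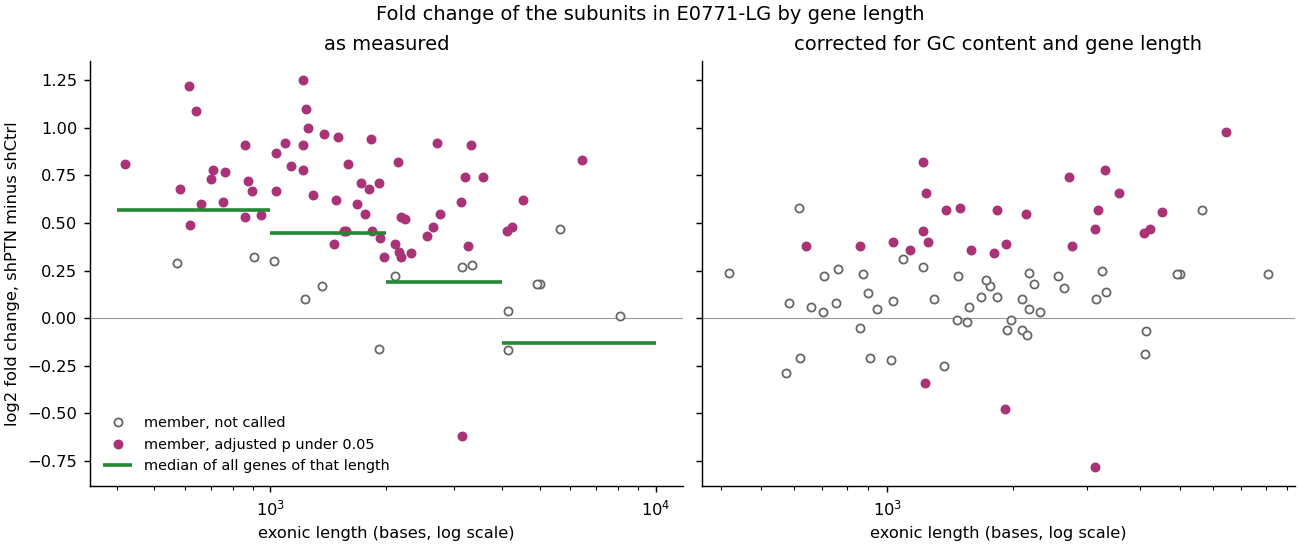
Log2 fold change (shPTN minus shCtrl) of the 77 tested subunits in E0771-LG against exonic length in bases on a log axis, as measured and after correction for GC content and gene length. Green bars are the medians of all genes in 4 length classes, from 0.57 for the shortest to −0.13 for the longest, and 61 members called higher became 25.

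Because 61 of 77 members were called higher together in E0771-LG before the correction, the promoters of the member with the highest fold change in each complex are shown. RefSeq promoters (build GRCm38.p6) matched 64 of the 78 symbols. The other 14 had no entry. They were matched by symbol. Each sequence is the 250 bases before the annotated start, on the strand of the gene. They are those of Ndufa13 (ENSMUSG00000036199, chr8:69902021-69902270, minus strand), Sdhb (ENSMUSG00000009863, chr4:140961021-140961270, plus strand), Uqcrh (ENSMUSG00000063882, chr4:116075071-116075320, minus strand), Cox7b (ENSMUSG00000031231, chrX:106015450-106015699, plus strand) and Atp5k (ENSMUSG00000050856, chr5:108434400-108434649, minus strand). Capitals mark a match to a motif searched on both strands: GCGCNTGCGC for NRF1, CCGGAAGT for the ETS family to which GABPA belongs, and AAGATGGC for YY1, with no overlap between motifs in these sequences. The GENCODE models of Ndufa13, Sdhb and Atp5k begin upstream of the RefSeq start, so these windows lie partly or wholly inside them.
Ndufa13: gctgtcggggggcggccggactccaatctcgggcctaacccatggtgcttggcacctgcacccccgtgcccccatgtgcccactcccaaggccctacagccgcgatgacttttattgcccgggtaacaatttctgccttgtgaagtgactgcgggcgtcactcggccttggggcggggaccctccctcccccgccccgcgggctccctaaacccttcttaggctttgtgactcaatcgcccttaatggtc
Sdhb: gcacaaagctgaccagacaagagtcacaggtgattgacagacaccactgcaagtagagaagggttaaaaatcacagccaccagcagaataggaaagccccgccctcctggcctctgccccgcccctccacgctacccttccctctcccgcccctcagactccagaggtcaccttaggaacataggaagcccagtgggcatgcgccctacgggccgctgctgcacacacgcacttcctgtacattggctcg
Uqcrh: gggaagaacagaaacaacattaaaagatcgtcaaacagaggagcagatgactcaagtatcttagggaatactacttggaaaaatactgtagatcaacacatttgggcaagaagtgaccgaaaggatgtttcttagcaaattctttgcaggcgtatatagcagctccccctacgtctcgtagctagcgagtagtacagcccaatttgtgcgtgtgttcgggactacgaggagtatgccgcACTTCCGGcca
Cox7b: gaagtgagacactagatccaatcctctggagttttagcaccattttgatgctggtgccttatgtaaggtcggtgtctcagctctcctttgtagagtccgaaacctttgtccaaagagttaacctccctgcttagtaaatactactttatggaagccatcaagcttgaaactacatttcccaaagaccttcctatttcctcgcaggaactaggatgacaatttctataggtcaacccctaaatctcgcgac
Atp5k: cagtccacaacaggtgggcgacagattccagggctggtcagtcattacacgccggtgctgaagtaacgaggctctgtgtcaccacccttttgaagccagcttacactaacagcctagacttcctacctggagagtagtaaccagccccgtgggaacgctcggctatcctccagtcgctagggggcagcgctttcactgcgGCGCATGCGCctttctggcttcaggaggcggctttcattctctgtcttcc

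Of these 5 windows, that of Atp5k held the NRF1 letters and that of Uqcrh the ETS letters, while those of Ndufa13, Sdhb and Cox7b held none of the 3 motifs. Among the 69 promoters of members in the table, 14 (20.3%) held the NRF1 motif, against 3.74% of all 32851 promoters of that length. The ETS motif was in 3 (4.35%, against 2.88%) and the YY1 motif in 1 (1.45%, against 1.56%). The 13 genes with the NRF1 letters included Ndufa8, Ndufs6, Ndufa11, Sdha, Sdhd, Cox6a1 and Atp5g2, and thus genes that were called higher and genes that were not. A match describes letters in the window and shows no binding.

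Complex I had 28 of 36 members called higher and 0 lower in E0771-LG. At an unadjusted p under 0.05 limma gave 31 higher and 0 lower. Ndufa13, an accessory subunit of the membrane arm also known as GRIM-19, had log2 CPM of 4.82, 5.26 and 5.18 with shCtrl and 6.04, 6.20 and 6.02 with shPTN, a fold change of 1.00 (SE 0.13, adjusted p = 0.000229). Every shPTN sample was above every control. After the correction for GC content and length its fold change was 0.40 (adjusted p = 0.0175). Ndufv1 carries the site that oxidizes NADH. It had 6.68, 6.76 and 6.61 with shCtrl and 7.10, 7.29 and 7.09 with shPTN, a fold change of 0.48 (SE 0.10, adjusted p = 0.00297), and 0.16 (adjusted p = 0.218) after the correction. Its groups were apart as well. Ndufs1, the largest subunit, with iron-sulfur clusters of the same arm, had 7.05, 7.16 and 7.06 with shCtrl and 6.99, 7.14 and 7.17 with shPTN, a fold change of 0.01 (SE 0.10, adjusted p = 0.941). Its groups overlapped.

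Complex II moved least. Sdhb, its iron-sulfur subunit, had 6.63, 6.65 and 6.61 with shCtrl and 7.14, 7.17 and 7.14 with shPTN, a fold change of 0.52 (SE 0.09, adjusted p = 0.000983). The groups lay far apart beside their narrow scatter, although the corrected fold change was 0.18 (adjusted p = 0.135). Sdha, the flavoprotein that oxidizes succinate, had 8.29, 8.29 and 8.31 with shCtrl and 8.10, 8.15 and 8.13 with shPTN, a fold change of −0.17 (SE 0.08, adjusted p = 0.106). All its shPTN samples were below all controls, in contrast to Sdhb, but it was not called. The other member called higher was Sdhc (0.38), a membrane anchor named after its values were seen, and Sdhd was at 0.10.

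In complex III 7 of 9 members were called higher and 0 lower, and 7 and 0 at an unadjusted p under 0.05 by limma. Uqcrh, the hinge protein beside cytochrome c1, had 5.38, 5.44 and 5.51 with shCtrl and 6.54, 6.70 and 6.39 with shPTN, a fold change of 1.10 (SE 0.11, adjusted p = 6.27e-05), and 0.66 (adjusted p = 0.000878) after the correction. Its shPTN samples all stood above the controls. Cyc1, cytochrome c1 itself, had 8.21 and 7.95 in shCtrl replicates 1 and 3, replicate 2 between them, and 8.39, 8.45 and 8.38 with shPTN, a fold change of 0.35 (SE 0.10, adjusted p = 0.0112). The groups did not overlap, but the call was lost without shCtrl replicate 3 (0.30, adjusted p = 0.0549) or shPTN replicate 2 (0.33, adjusted p = 0.0564), and after the correction for GC content and length the value changed sign (−0.09). The 2 not called were Uqcrc1, a core protein, at 0.04 (SE 0.09, adjusted p = 0.717), and Uqcrfs1, the Rieske iron-sulfur protein, at 0.17 (SE 0.09, adjusted p = 0.166), which changed sign with the correction (−0.25, adjusted p = 0.0506). Uqcrc1 had 8.13 and 7.93 in shCtrl replicates 1 and 3, replicate 2 between them, and 8.06 in each shPTN sample, inside the range of the controls.

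Complex IV had the highest median before the correction, with 10 of 11 members called higher and 0 lower, and all 11 higher at an unadjusted p under 0.05 by limma. Cox7b, a small subunit needed for assembly, had 6.63, 6.99 and 7.10 with shCtrl and 8.06, 8.32 and 8.07 with shPTN, a fold change of 1.25 (SE 0.13, adjusted p = 7.46e-05), the largest of all members. Its shPTN samples lay well above the controls, and the corrected fold change was 0.82 (adjusted p = 0.00127). Cox4i1, the main isoform of a regulatory subunit, had 8.31, 8.45 and 8.30 with shCtrl and 8.79, 8.91 and 8.72 with shPTN, a fold change of 0.46 (SE 0.09, adjusted p = 0.00239). Its groups were apart, but its corrected fold change was −0.02 (adjusted p = 0.867). Cox5a, which binds a thyroid hormone metabolite and Cox4, had 6.36, 6.32 and 6.40 with shCtrl and 6.64, 6.57 and 6.51 with shPTN, a fold change of 0.22 (SE 0.09, adjusted p = 0.0825). Although its groups did not overlap, it was the member of complex IV that was not called, and with the correction its sign changed (−0.06).

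In complex V 14 of 17 members were called higher and 1 lower. Atp5k, subunit e of the membrane part, had 3.34, 3.41 and 4.29 with shCtrl and 4.80, 5.20 and 4.71 with shPTN, a fold change of 1.22 (SE 0.25, adjusted p = 0.00388). The highest control, replicate 3, lay below the lowest shPTN sample, and the corrected fold change was 0.58 (adjusted p = 0.06). The catalytic head is built of the alpha subunit Atp5a1 and the beta subunit Atp5b, and these moved in opposite directions. Atp5a1 had 10.38, 10.20 and 10.23 with shCtrl and 9.65, 9.64 and 9.65 with shPTN, and it fell by 0.62 (SE 0.08, adjusted p = 0.000214). Atp5b had 10.85, 10.95 and 10.85 with shCtrl and 11.34, 11.37 and 11.38 with shPTN, a fold change of 0.48 (SE 0.07, adjusted p = 0.000495). Neither gene had overlapping groups. The correction left them at −0.78 (adjusted p = 0.000127) and 0.47 (adjusted p = 0.000807). Both were called in each of 20 fits under different settings, with adjusted p of at most 0.00306 for Atp5a1 and 0.01 for Atp5b. Atp5a1 lies on chromosome 18, as does Ndufa2 of complex I, named after its values were seen. Ndufa2 had 5.17, 5.52 and 5.60 with shCtrl and 5.65, 5.93 and 5.59 with shPTN. Its corrected fold change was −0.29 (adjusted p = 0.0764). Whether other genes of that chromosome shared the fall of Atp5a1 was not tested. Beside Atp5g1 (0.18), the member of complex V not called was Atp5c1, the central stalk, at −0.16.

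**Figure D4:**
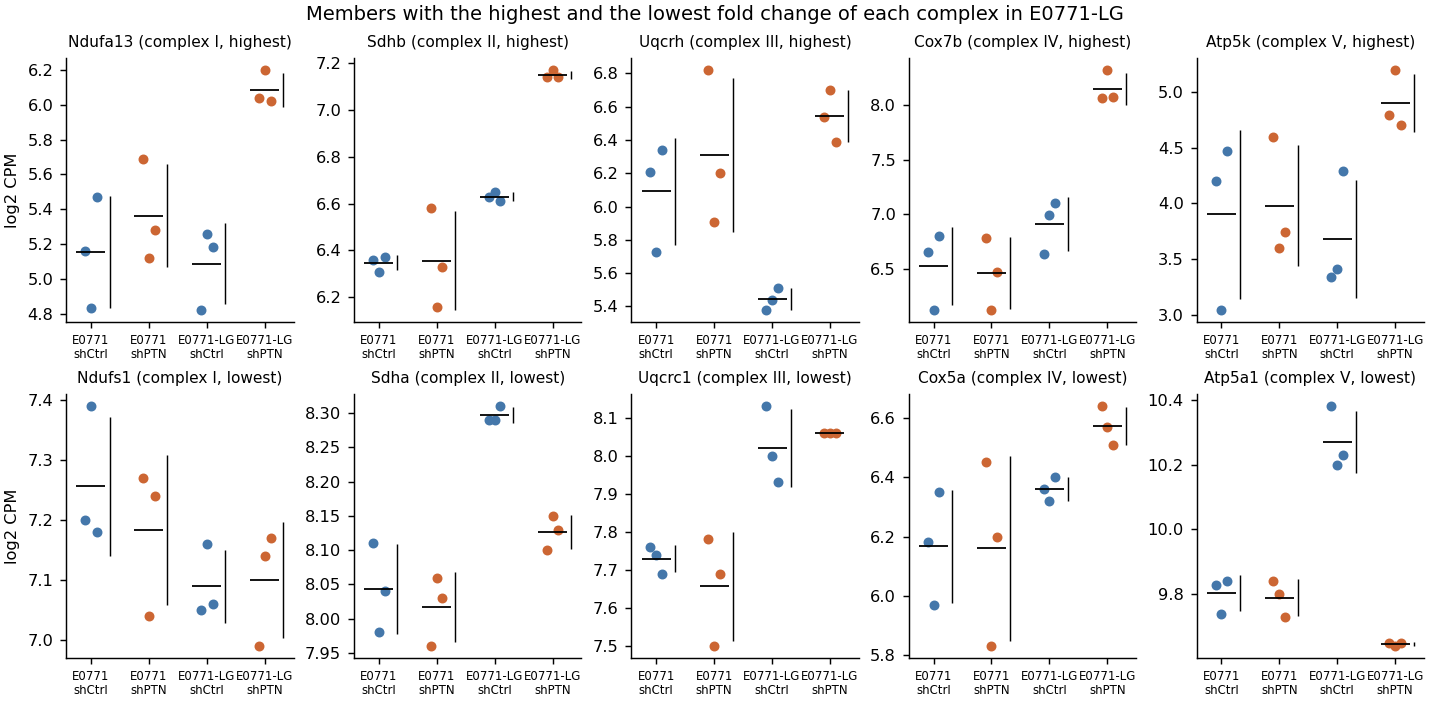
Log2 CPM by sample in E0771 and E0771-LG for the member with the highest (upper panels) and the lowest (lower panels) fold change of each complex in E0771-LG. Points are samples, horizontal bars are means and vertical bars 1 SD (n = 3); Atp5a1 fell from 10.20 or more with shCtrl to 9.65 or less with shPTN in E0771-LG and overlapped between the groups in E0771.

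Several subunits of complexes IV and V exist as paralogs, of which tissues use different ones. Of the sets looked for, Cox4i1 and Cox4i2, Cox6a1, Cox6b1, Cox7a2 and Cox7a2l, Cox8a, and Atp5g1, Atp5g2 and Atp5g3 were in the table, and the muscle forms Cox6a2, Cox7a1 and Cox8b and the testis form Cox6b2 were not. In E0771-LG the fold changes were 0.73 for Cox6a1, 0.78 for Cox6b1, 0.54 for Cox7a2, 0.62 for Cox7a2l and 0.49 for Cox8a, all called. Corrected for GC content and length they were 0.03, 0.22, 0.05, 0.22 and −0.21 in that order, so that Cox8a changed sign and none was called. The Atp5g genes encode the same mature c subunit. Among them Atp5g2 rose by 0.60 and Atp5g3 by 0.32, both called, and Atp5g1 by 0.18, not called. With GC content and length corrected they were at 0.11, 0.05 and 0.23 in that order, none called. As deposited, Atp5g3 lost its call without shCtrl replicate 3 (0.33, adjusted p = 0.052), shPTN replicate 1 (0.27, adjusted p = 0.0726) or shPTN replicate 2 (0.30, adjusted p = 0.0744). Cox4i2 was at −3.53, −5.29 and −5.22 with shCtrl and −5.40, −5.17 and −2.80 with shPTN, below the limit for testing.

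Whether the members responded differently in the cell lines was tested by the limma interaction term, the response in E0771-LG minus that in E0771. It called 34 of 77 members higher and 1 lower, beside 18.3% and 15.7% of 10586 genes, with a median of 0.55, beside 0.08 over all genes. By complex 19 of 36 were higher in I, 2 of 4 in II (Sdhb and Sdhc), 4 of 9 in III (Uqcrh, Uqcrb, Uqcr10 and Uqcrc2), 3 of 11 in IV (Cox7b, Cox6b1 and Cox6c) and 6 of 17 in V, and those outside the naming rule were named after their values were seen. After correction for GC content and gene length 9 were called higher and 3 lower (Atp5a1, Atp5c1 and Ndufa12, of which Atp5c1 and Ndufa12 were named after their values were seen), and the median was 0.20. Under the same correction 15.2% of all genes were called higher and 17.3% lower, shares that the members did not exceed. The count of 34 depended on single libraries of both lines. It was 19 without E0771 shCtrl replicate 1, 14 without shCtrl replicate 3, 20 without shPTN replicate 2, 22 without shPTN replicate 3 and 55 without shPTN replicate 1, and it was 15 without E0771-LG shPTN replicate 2.

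The largest difference was in Cox7b. Its E0771 values were 6.65, 6.12 and 6.80 with shCtrl and 6.78, 6.12 and 6.47 with shPTN, beside the E0771-LG values above. The responses differed by 1.31 (SE 0.28, adjusted p = 0.00372). Ndufs4, an accessory subunit of complex I that is phosphorylated, had 6.00, 6.02 and 6.16 with shCtrl and 6.19, 5.73 and 5.87 with shPTN in E0771, and 6.15, 6.11 and 6.30 with shCtrl and 6.93, 7.32 and 7.06 with shPTN in E0771-LG. The difference was 1.04 (SE 0.18, adjusted p = 0.000695). Ndufa11, which holds the membrane arm together, had 5.71, 5.44 and 5.63 with shCtrl and 5.75, 4.93 and 5.73 with shPTN in E0771, and 5.06, 4.95 and 4.72 with shCtrl and 5.71, 5.92 and 5.87 with shPTN in E0771-LG. The difference was 1.05 (SE 0.26, adjusted p = 0.00692). For all 3 genes the shPTN samples overlapped the controls in E0771 and stood above them in E0771-LG. Atp5a1 had 9.83, 9.74 and 9.84 with shCtrl and 9.84, 9.80 and 9.73 with shPTN in E0771, and the responses differed by −0.60 (SE 0.11, adjusted p = 0.00101). It was the member called in the lower direction. Under the 26 settings fitted Cox7b, Ndufs4 and Atp5a1 were called in 26 and Ndufa11 in 24, not with GC content and length corrected (0.47, adjusted p = 0.0627).

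Without knockdown, E0771-LG shCtrl was compared with E0771 shCtrl. These are the control samples of the comparisons above, so no overlap with those is given. The median over all genes tested was −0.15 and moved to 0.00 with median-of-ratios scaling, so the members are read relative to it. Their median was 0.09, or 0.24 under that scaling, and 46 of 77 (59.7%) were above 0, beside 39.6% of all genes. The shares of members and of all genes were 70.1% and 50% with median-of-ratios scaling and 71.4% and 50.3% with quantile normalization. As deposited, 17 members were called higher in E0771-LG and 15 lower, beside 19.2% and 35.3% of 10419 genes. With median-of-ratios scaling the counts were 27 and 7, beside 27.4% and 27.2% of all genes. Without E0771 shCtrl replicate 2 there were 11 called higher. Without E0771 shCtrl replicates 1 or 3 there were 9 or 7 called lower. By complex the higher and lower calls were 3 and 8 in I, 2 and 1 in II, 5 and 1 in III, 1 and 2 in IV and 6 and 3 in V. Those of small counts, named after their values were seen, were Ndufa5, Ndufa12 and Ndufa9 higher in I, Sdhb and Sdha higher and Sdhc lower in II, Uqcrq, Uqcr10, Uqcrb, Cyc1 and Uqcrc1 higher and Uqcrh lower in III, Cox4i1 higher and Cox7a2l and Cox8a lower in IV, and Atp5e, Atp5j2 and Atp5md lower in V. The extremes were Atp5g1 (0.92) and Ndufv3 (−1.29).

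Levels were compared between genes per kilobase of exonic length in the control samples, where a mean log2 CPM per kb is given with its SD (n = 3). In E0771 the most abundant member was Atp5b at 8.63 ± 0.05, then Cox8a at 8.28 ± 0.23 and Atp5a1 at 8.16 ± 0.05. The last 2 did not differ beyond their spread. In E0771-LG the order was Atp5b at 8.80 ± 0.06, Atp5a1 at 8.62 ± 0.10 and Cox8a at 7.92 ± 0.04. In PyMT tumors Cox6a1 led at 8.70 ± 0.31, with Atp5a1 at 8.37 ± 0.05 and Cox8a at 8.08 ± 0.23, with gaps close to the larger SD of each pair. Ndufb2 was lowest in all 3, at 0.59 ± 0.23, −0.29 ± 0.43 and 0.60 ± 0.16 in that order. The median level per kb of complex I in E0771-LG was 4.97, against 5.86 for II, 6.36 for III, 6.60 for IV and 5.43 for V. In 4T1 tumors, whose deposited values are already per length, Atp5mpl led at 9.76 ± 0.25, followed within that spread by Cox6b1 at 9.69 ± 0.15, and Atp5g2 was lowest at 1.02 ± 0.17.

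Other genes of the pathway were taken from lists of their own. In both tumor models limma called 0 genes of any of them. Of the assembly factors, which build the complexes but are not part of them, 46 of 50 were tested in the cells. In E0771-LG 13 were called higher and 5 lower, beside 24.3% and 22% of all genes, with a median of 0.25, and in E0771 1 and 3, beside 8.9% and 11.7% of all genes. With GC content and length corrected the E0771-LG counts were 6 and 7, beside 18.1% and 21.9% of all genes, and the median was 0.02. Pet100 and Ndufaf3 were then not called (highest adjusted p over all settings fitted 0.0664 and 0.069). Pet100, a factor for complex IV, had −0.25, 1.01 and 1.63 with shCtrl and 2.37, 2.06 and 2.28 with shPTN in E0771-LG (1.44, adjusted p = 0.0202), a call lost without any of the shPTN replicates (adjusted p of 0.0563 to 0.0653). Coa4 (1.03), Ndufaf3 (1.02) and Coa5 (−0.84) followed by size, and the others called lower, named after their values were seen, were Ttc19 (−0.55), Cox10 (−0.54), Sco1 (−0.54) and Foxred1 (−0.36). In E0771 the factors called were Tmem70 (−0.87), which serves complex V, and Ndufaf5 (−0.86), Ndufaf7 (−0.51) and Ndufaf1 (0.60), which serve complex I. Ndufaf1 lost its call without shPTN replicate 3 (0.57, adjusted p = 0.0612) and Ndufaf7 without shCtrl replicate 3 (−0.45, adjusted p = 0.066).

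Of the regulators of mitochondrial genes 16 of 18 were tested in E0771-LG, where 1 was called higher and 4 lower, beside 24.3% and 22% of all genes, with a median of −0.06. Ppargc1a encodes PGC-1alpha, the coactivator that drives genes of respiration in many tissues. It had 3.79, 4.30 and 4.19 with shCtrl and 1.42, 0.71 and 1.51 with shPTN, and it fell by 2.88 (SE 0.27, adjusted p = 4.34e-05). All shPTN samples were far below all controls, in the direction opposite to most subunits. Tfb2m (−0.73), a mitochondrial transcription factor, Gabpa (−0.47) and Pprc1 (−0.45), a relative of PGC-1alpha named after its values were seen, were called lower too, and Ssbp1 (0.61), which binds single-stranded mitochondrial DNA, was called higher. With GC content and length corrected 3 regulators were higher and 5 lower, beside 18.1% and 21.9% of all genes. The higher were Ssbp1, Nrf1 and Yy1, and the lower Ppargc1a, Tfb2m, Pprc1, Twnk and Gabpa. The median changed sign to 0.02, and Nrf1, Yy1 and Twnk were named after their values were seen. In E0771, where 8.9% of all genes were called higher and 11.7% lower, the regulator called was Polrmt (−0.31), the mitochondrial RNA polymerase, a call lost without any of the libraries except shPTN replicate 2 (adjusted p of 0.0593 to 0.14).

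Of the 17 genes of the TCA cycle, which supplies NADH and succinate, 5 were called higher and 0 lower in E0771-LG, beside 24.3% and 22% of all genes, with a median of 0.09. At an unadjusted p under 0.05 limma gave 5 and 2. They were Pdhb (0.51), Fh1 (0.48), Idh2 (0.48), Idh3g (0.30) and Mdh2 (0.25), the last named after its values were seen. Idh2 lost its call without shPTN replicates 2 (adjusted p = 0.0584) or 3 (0.0576), and Idh3g without shCtrl replicate 3 or shPTN replicates 2 or 3 (0.0803 to 0.0945). Corrected for GC content and length 2 were higher (Pdhb and Fh1) and 1 lower (Pdha1, named after its values were seen). These stood beside 18.1% and 21.9% of all genes, and the median was 0.05. In E0771 0 were called higher, with 1 at an unadjusted p under 0.05 by limma, and 4 were called lower, beside 8.9% and 11.7% of all genes. These were Idh2 (−0.76), Pdhb (−0.40), Dlat (−0.39) and Dld (−0.33). The call of Pdhb there was lost without any of the libraries except shPTN replicate 1 (adjusted p of 0.0551 to 0.11), and those of Dlat and Dld without shCtrl replicates 2 or 3 or shPTN replicate 3 (0.0507 to 0.0759).

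Of the electron carriers and partners 18 of 20 were tested in E0771-LG. Of these, 9 were called higher and 1 lower, beside 24.3% and 22% of all genes, with a median of 0.22. They were led by Etfb (0.90), Coq3 (0.79), Chchd2 (0.67) and Coq7 (0.59), and the gene called lower was Coq4 (−0.42), named after its values were seen. With the correction 7 were higher and 4 lower, beside 18.1% and 21.9% of all genes. Those lower were Coq4, Coq2, Coq5 and Slc25a5, named after their values were seen. The median was 0.12, and Etfb was not called (highest adjusted p over all settings fitted 0.323). Etfb lost its call without shCtrl replicate 1 (adjusted p = 0.0504) or shPTN replicate 2 (0.115). In E0771 limma called 0 of 19 higher (1 at an unadjusted p under 0.05) and 2 lower, Coq3 (−0.55) and Coq5 (−0.54), which make ubiquinone, beside 8.9% and 11.7% of all genes. Coq3 lost its call without shCtrl replicates 2 or 3 or shPTN replicates 2 or 3 (adjusted p of 0.0537 to 0.141), and Coq5 without shCtrl replicate 3 (0.0554) or shPTN replicate 3 (0.0639).

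Genes of other large complexes were listed for comparison in E0771-LG. Of 80 cytosolic ribosomal proteins 72 were called higher and 0 lower, beside 24.3% and 22% of all genes, with 72 and 0 at an unadjusted p under 0.05 by limma and a median of 0.62. They were led by Rps27a (1.72), Rpl21 (1.41), Rpl22l1 (1.17) and Rps10 (1.16). The call of Rps27a was lost without shCtrl replicates 1 or 2 or shPTN replicates 1 or 3 (adjusted p of 0.0664 to 0.144), and that of Rps10 without shCtrl replicate 1 or shPTN replicates 1 or 2 (0.0663 to 0.112). Of 76 mitochondrial ribosomal proteins 38 were higher and 2 lower, with a median of 0.31, led by Mrps21 (0.96), Mrps24 (0.94), Mrpl14 (0.91) and Mrpl23 (0.90), and Mrpl3 (−0.47) and Mrpl38 (−0.39) were lower. Of 37 proteasome subunits 22 were higher and 2 lower, with a median of 0.42, and the largest were Psmb5 (0.87), Psmb10 (−0.71), Psmc2 (0.69) and Psma3 (0.66), with Psmd3 (−0.31) also lower. Mrpl3, Mrpl38, Psmd3 and the genes named next for small corrected counts were named after their values were seen. Corrected for GC content and gene length, 44 cytosolic ribosomal proteins were called higher, with a median of 0.30. For mitochondrial ribosomal proteins the counts were 23 and 12 and the median 0.13, and for the proteasome 10 and 3 (Psmb10, Psmd7 and Psmd3) and 0.08, beside 0.22 for the oxidative phosphorylation members and 18.1% and 21.9% of all genes called. Among the genes named above by size, Rps10, Mrps21, Mrpl14 and Psmb5 were then not called. Their highest adjusted p over all settings fitted was 0.119, 0.0509, 0.101 and 0.0695 in that order. Higher calls in E0771-LG were thus not confined to the members.

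In E0771 limma called 0 of 80 cytosolic ribosomal proteins in either direction (3 higher and 0 lower at an unadjusted p under 0.05), beside 8.9% and 11.7% of all genes. The mitochondrial ribosomal proteins called there were Mrpl45 (0.35), Mrpl42 (−0.39) and Mrps22 (−0.35). Mrpl45 lost its call without any library (adjusted p of 0.0509 to 0.101), Mrpl42 without shCtrl replicates 1 or 3 or shPTN replicate 3 (0.0908 to 0.103), and Mrps22 without shCtrl replicates 2 or 3 or shPTN replicate 3 (0.0767 to 0.106). Among 37 proteasome subunits 2 were higher and 6 lower, and the largest were Psmd13 (0.46), Psmb8 (0.44), Psma7 (−0.43) and Psmd14 (−0.41). Psmd13 lost its call without shCtrl replicates 1 (0.0508) or 2 (0.0571), Psmb8 without any library except shPTN replicate 2 (0.0642 to 0.141), and Psma7 and Psmd14 without shCtrl replicate 3 or shPTN replicate 3 (0.0531 to 0.0807).

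The cell cultures were checked against the marker lists too. The epithelial and carcinoma sums were 158, 204 and 164 with shCtrl and 424, 565 and 516 with shPTN in E0771-LG, led by Krt8, with Cdh1 at the lowest value in shCtrl replicates 1 and 2. Called there were Krt18 (3.00), Krt8 (1.57) and Epcam (0.46), the last not without shCtrl replicates 1 or 3 or shPTN replicates 1 or 3 (adjusted p of 0.058 to 0.14). With GC content and length corrected Krt18 (2.48) and Krt8 (1.12) were called and Epcam was not. In E0771 the sums were 99.4, 114 and 107 with shCtrl and 115, 99.1 and 108 with shPTN. The fibroblast sums in E0771-LG were 73.1, 110 and 87.5 with shCtrl and 50.8, 51.1 and 57.2 with shPTN, led by Pdgfra, with none of 4 at the lowest value. In E0771 they were 50.2, 71.0 and 56.6 with shCtrl and 132, 144 and 154 with shPTN. The epithelial sums thus lay apart in E0771-LG and overlapped in E0771, where Epcam was nevertheless higher by 0.60 without a call. The fibroblast sum was higher with shPTN in E0771 and lower in E0771-LG. In E0771-LG that list was mixed: Col1a1 (−4.68) and Pdgfra (−0.68) were called lower and Dcn (1.64) higher, the last not without shCtrl replicate 3 or any of the shPTN replicates (adjusted p of 0.0503 to 0.172). With the correction Col1a2 (1.54, adjusted p = 0.0283), named after its values were seen, was called higher too. The summed muscle markers of E0771 were 5.57, 7.44 and 6.98 with shCtrl and 14.9, 13.6 and 15.2 with shPTN, led by Actn3 (1.52), while the other muscle marker tested there, Mylpf, was at −0.66 without a call. In E0771-LG, where the muscle sums overlapped, Acta1 was called lower (−1.20), though not without shCtrl replicate 1 or shPTN replicates 1 or 3 (adjusted p of 0.0537 to 0.0954). Leukocyte sums went from 15.6, 21.6 and 19.6 to 47.1, 32.8 and 37.8 in E0771 and from 91.2, 88.5 and 89.5 to 47.5, 53.2 and 56.3 in E0771-LG. The sum was thus higher with shPTN in the parent and lower in the derivative, where Laptm5 (−0.94) fell and Coro1a (0.77), the other marker tested, rose without a call. Fabp4 and the neutrophil sums overlapped in E0771 and were lower with shPTN in E0771-LG, where Mmp9 (−1.82) fell and S100a8, the other neutrophil marker tested, was 0.43 higher without a call.

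Endothelial sums were at most 3.41 in any culture, whereas 2 to 5 of 7 leukocyte markers were at the lowest value in every culture. The part of these genes in the result was not tested.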

How the data were processed

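The values were log2 levels as deposited: the authors used HISAT2 (build mm10), featureCounts, edgeR and limma to make them. They are log2 CPM in 18 samples, where reads could be recovered, and on a length-normalized scale of unknown depth in the 6 samples of 4T1. Separate limma fits per experiment (version 3.58.1, R 4.3.3, empirical Bayes with trend and robust) used the genes with a value of 1 or more off the log scale in 3 or more samples, with Benjamini-Hochberg adjustment over all genes tested. Differences between experiments were limma interaction terms over 12 samples. A first fit subtracted each sample's lowest value before the filter; this departure from the design was corrected, and that form was kept as an alternative added after seeing the data. Tables were made with Python 3.11.15 (pandas 2.3.3, numpy 2.4.6), with lengths and GC content from GENCODE. The code was tested on simulated data.

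Named genes were anchors of each complex, the highest and lowest member of each complex and experiment, paralogs, the members with the largest called differences between the lines (at most 3 in each direction) and at most 4 called genes per other list and experiment. Members and lists were chosen with earlier results of these data known. Alternatives were no filter and a stricter filter, eBayes not robust, all 24 samples in a single fit, pseudocounts of 1 and 0.1, median-of-ratios scaling, quantile normalization, voom weights, correction for GC content and length (splines, 5 degrees of freedom), replicate block, each replicate left out, and an adjusted p under 0.01.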

Additional observations from a re-analysis of the deposited data

Results flagged for a closer look

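The limma interaction term found members whose response to shPTN differed between the cell lines: 34 were higher and 1 lower in E0771-LG minus E0771, beside 18.3% and 15.7% of all genes. Among the named genes the differences of log2 fold changes were 1.31 for Cox7b, 1.05 for Ndufa11, 1.04 for Ndufs4, 0.88 for Cox6b1, 0.55 for Ndufv1, 0.51 for Sdhb, 0.35 for Atp5b and −0.60 for Atp5a1. With GC content and gene length corrected 9 were higher and 3 lower, beside 15.2% and 17.3% of all genes, and without single libraries 14 to 55 were higher (55 without E0771 shPTN replicate 1, 14 without E0771 shCtrl replicate 3). Under the correction Ndufa11 (0.47, adjusted p = 0.0627), Cox6b1 (0.32, 0.15), Ndufv1 (0.26, 0.118) and Sdhb (0.20, 0.178) were no longer called, and Cox7b, Ndufs4, Atp5b and Atp5a1 were. The cause of these differences was not tested.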

How the results depend on the processing

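With GC content and gene length corrected, with and without the replicate block, E0771-LG had 25 members called higher and 3 lower with a median of 0.22, and E0771 had 2 higher (Cox7a2l and Ndufa12; with the block Ndufa12 and Ndufa4) and 1 lower (Sdhd). The difference between the lines had 9 higher, or 8 with the block, and 3 lower, with a median of 0.20. In E0771-LG 7 members called higher changed sign with the correction: Ndufa8 (0.53 to −0.05), Cyc1 (0.35 to −0.09), Cox4i1 (0.46 to −0.02), Cox8a (0.49 to −0.21), Atp5d (0.42 to −0.06), Atp5h (0.39 to −0.01) and Atp5o (0.32 to −0.01). None of them was then called, and the cause was not tested. Ndufa8, Atp5d, Atp5h and Atp5o were named after their values were seen. In E0771 the calls of Coq3 and Mrpl42 were lost with it too. With the replicate block alone E0771 had 2 higher (Atp5g2 and Ndufa12) and 1 lower (Sdhd), and E0771-LG 61 and 1. In the line comparison median-of-ratios scaling gave 27 higher and 7 lower with a median of 0.24, and quantile normalization 8 lower.

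Leaving out each replicate gave 1 to 5 higher and 0 to 2 lower in E0771, a median of 0.52 to 0.60 in E0771-LG, 14 to 55 higher in the difference between the lines, and 11 to 18 higher and 7 to 18 lower in the line comparison. Over 170 results for named genes, 3386 alternative values were obtained: 3186 stayed on the same side of the threshold (92 of these changed sign, with no call on either side), 184 were no longer called, 10 became called and 6 called values reversed. The named genes of the tumors were not called in any setting, so these largely could not change sides. With GC content and length corrected, 140 of 170 stayed, 25 were no longer called, 2 became called and 3 called values reversed.

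The form of the filter that subtracts each sample's lowest value, chosen after seeing the data, left the E0771-LG counts at 61 and 1. Voom weights were not run for 4T1 or the difference between tumor models, since reads could not be recovered, and the line comparison has no fit of all 24 samples. Replicate numbers come from the labels and may not mark pairs. In the tumors limma called 0 genes (369 higher and 355 lower at an unadjusted p under 0.05 in 4T1, 173 and 136 in PyMT), and the reason was not tested.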
